A study of Homo sapiens with 24 samples.

Results

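The ATF4 amino acid response genes are 36 genes that human cells use to make, import and load amino acids when these run short, together with the stress factors that control them. They were chosen by symbol among the 61860 rows of each count table, and all 36 matched 1 row by Ensembl ID. The symbols were drawn up with results of these comparisons known, so the counts of members below describe the list and support nothing about it.

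ATF4 is a transcription factor whose protein rises when kinases such as GCN2 and PERK phosphorylate the translation factor eIF2α, because the modified factor slows general protein synthesis while favoring translation of the ATF4 message. ATF4 then pairs with C/EBP proteins at composite DNA elements and turns on enzymes of serine, glycine, asparagine and proline synthesis, mitochondrial folate enzymes, amino acid transporters and a set of feedback genes. Since the control is largely translational, the level of ATF4 mRNA is not a reading of ATF4 protein, which was not measured in these libraries.

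RNA-seq was performed on OE33 cells, a line derived from human esophageal adenocarcinoma, in 4 experiments with 3 treated and 3 control libraries each (24 in all). In the xenograft experiment, male BALB/c-nu nude mice, 4 weeks old, were kept on high-fat chow (HFD) or standard chow (ND) for 8 weeks before subcutaneous injection of OE33 cells, and the tumors were taken 21 days later. These mice lack T cells, and the counted rows are human genes only. In culture, OE33 cells received plasmids for HA-TRIM15 (labelled TRIM15-OE) or empty vector (EV, labelled TRIM15-EV) for 48 h, for shYY2 (YY2-sh) or shControl (YY2-NC) for 72 h, and for shFOXRED1 (FOXRED1-sh) or a second set of shControl libraries (FOXRED1-NC) for 72 h. TRIM15 is a ubiquitin ligase, YY2 a zinc finger transcription factor and FOXRED1 an assembly factor of respiratory complex I, and the study placed diet, TRIM15, YY2 and FOXRED1 in that order along a pathway. All groups share the OE33 background, each target was represented by a transient plasmid with the shRNA sequence not assigned to these libraries in the sources used here, and nothing says whether replicates were separate cultures. P-values therefore measure the spread between these libraries, which may be technical.

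The libraries held 14299807 to 45994561 counts. YY2 had 11, 12 and 11 counts after shYY2 against 43, 40 and 46 in shControl, a fall of 1.82 ± 0.22 (SE) on the log2 scale. FOXRED1 had 183, 207 and 129 counts after shFOXRED1 against 322, 259 and 254, and fell by 0.78 ± 0.11. TRIM15 had 111, 130 and 181 counts with HA-TRIM15 and 0 in each EV library, and 14, 12 and 24 counts in HFD against 1, 0 and 0 in ND tumors. The 9 columnar epithelial markers summed to 11809 to 17913 CPM per library (CPM, the counts of a gene scaled to the counts of its library), with CDX1 at 0 in 7 of the 8 groups. After shYY2 4 of the 8 tested rose and 4 fell, beside 36.8% and 38.1% of all genes tested. Among them were CLDN4 (0.90), KRT19 (0.64), KRT8 (-0.64) and KRT18 (-0.31), on the log2 scale. The endothelial list (4 genes) summed to at most 0.889 CPM, the adipocyte list (4 genes) to at most 1.34 CPM and the leukocyte list (6 genes) to at most 26.3 CPM. The fibroblast list (7 genes) summed to 10.5 to 43.9 CPM and was COL1A1 almost alone, since COL1A2, DCN and LUM each averaged under 1 CPM. COL1A1 rose after shYY2 from 10.6 to 42.7 CPM and after shFOXRED1 from 24.6 to 40.3 CPM, and fell in HFD tumors from 31.6 to 25.5 CPM. ITGAM of the leukocyte list fell with HFD (-0.32) and shYY2 (-0.75) and rose with HA-TRIM15 (0.35). The adipocyte marker PLIN1 averaged 0.987 CPM with shYY2 against 0.236 CPM in shControl (21, 10 and 20 counts against 4, 4 and 5). PLIN1 passed the filter on low counts through the shYY2 group alone. The filter thus favored a higher call, and nothing is read from this rise. The part of these genes in the results was not tested. In the shFOXRED1 group, replicate 3 stood furthest from its fellows. In whole cell or tumor RNA, fewer cells of a kind and less RNA per cell cannot be told apart.

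Because ATF4 acts through a known element, the RefSeq promoter table (GRCh38.p14, 250 bases before to 50 after each start) was searched on both strands for TGATGNAA, the core of the C/EBP-ATF response element. The table held 30 of the 36 members, leaving out ALDH1L2, GPT2, NUPR1, PSPH, PYCR1 and SHMT2. At least 1 window with the core was found for 9 of these 30 genes (30.0%), against 4.46% of the 27305 genes in the table. Counted by window, 11 of 53 member windows (20.8%) and 3.62% of all 35116 windows held it, and windows of a gene with several starts overlap. The members below held the core and were called in at least 3 of the 4 experiments, and the stretch of 100 bases that holds each match is shown 5′ to 3′ on the gene's strand, with the matching letters in capitals.
SLC1A4 (chr2:64989300-64989399, plus strand): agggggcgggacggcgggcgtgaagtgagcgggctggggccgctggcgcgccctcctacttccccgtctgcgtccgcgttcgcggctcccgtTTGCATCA
ASNS (chr7:97872429-97872528, minus strand): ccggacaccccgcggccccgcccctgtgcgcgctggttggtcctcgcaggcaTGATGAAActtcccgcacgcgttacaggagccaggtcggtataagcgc
SLC7A1 (chr13:29595674-29595773, minus strand): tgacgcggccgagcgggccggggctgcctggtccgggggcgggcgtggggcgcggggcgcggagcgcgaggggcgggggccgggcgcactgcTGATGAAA
CEBPG (chr19:33374013-33374112, plus strand): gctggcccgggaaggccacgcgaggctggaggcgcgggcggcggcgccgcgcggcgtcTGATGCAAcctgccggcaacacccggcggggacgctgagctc
MTHFD1L (chr6:150866305-150866404, plus strand): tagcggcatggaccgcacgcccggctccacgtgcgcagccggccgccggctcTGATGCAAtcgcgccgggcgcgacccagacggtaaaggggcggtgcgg
The match began 68 bases before the start of ASNS, 42 before that of CEBPG, 129 before the MTHFD1L start used for the stretch shown and 7 before that of SLC1A4, and 8 bases into the SLC7A1 transcript. In SLC1A4 the core reads on the other strand. MTHFD1L has other annotated starts, and from a pair of these the same bases began 90 before the start or at base 25 of the transcript. The core was also matched for BCAT1, CHAC1, JDP2 and SLC1A5. The E-box CACGTG was found for 6 of the 30 genes (20.0%, against 8.77% of all genes), the CCAAT box CCAATCA for 8 (26.7%, against 8.35%), the cyclic AMP element TGACGTCA for PPP1R15A alone (3.33%, against 2.25%), and the core of the YY1-type motif AAGATGGC for 0 (against 3.52%). A match describes these letters and does not show binding.

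Each treated group was compared with its own controls by edgeR's quasi-likelihood test, and a gene was called at a Benjamini-Hochberg adjusted p under 0.05 over all genes tested. In HFD against ND tumors, 34 members passed the filter on low counts, of which 10 rose and 9 fell. The background was 25.6% of all genes tested called higher and 23.9% called lower, beside 29.4% and 26.5% of the members. After HA-TRIM15, 16 of 33 tested members rose and 1 fell, or 48.5% and 3.03%, against a background of 12.5% higher and 9.53% lower. After shYY2, 7 of 34 rose and 24 fell, or 20.6% and 70.6%, against 36.8% higher and 38.1% lower. After shFOXRED1, 5 of 33 rose and 18 fell, or 15.2% and 54.5%, against 16.8% higher and 19.7% lower. The median log2 fold change over the tested members was 0.056 with HFD, 0.15 with HA-TRIM15, -0.40 with shYY2 and -0.17 with shFOXRED1, while that over all genes tested lay between -0.012 and 0.012.

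**Figure D1:**
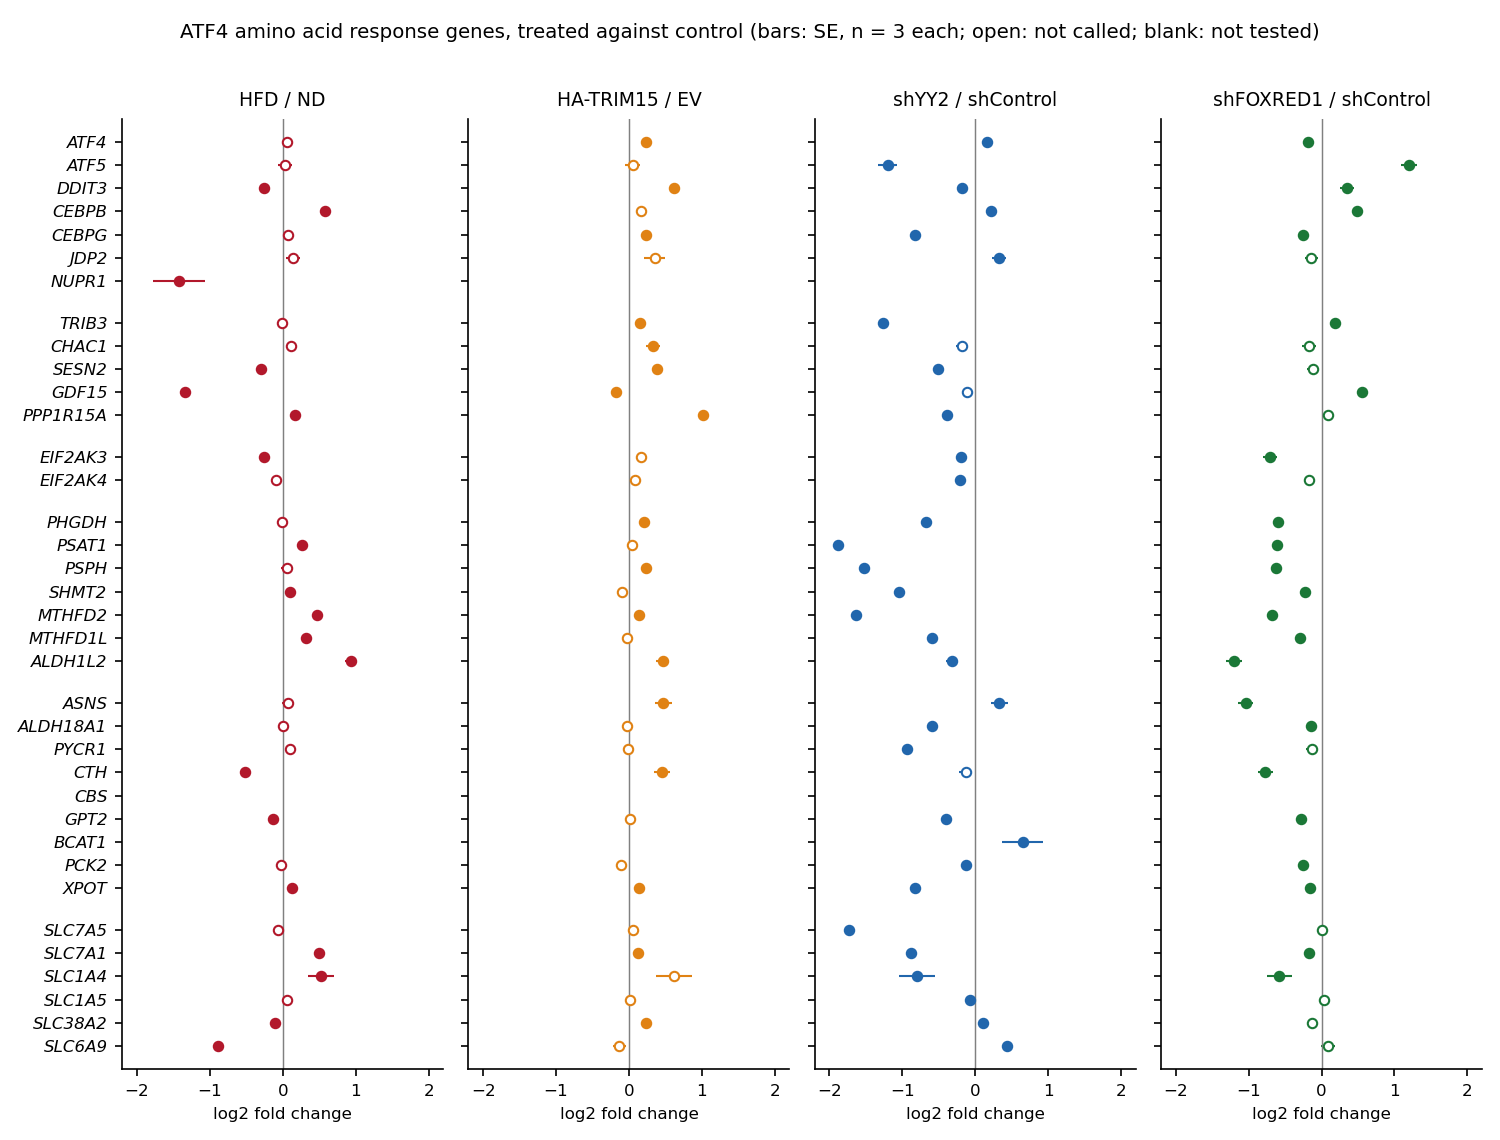
Log2 fold change (x axis, treated against control, bars are SE, 3 against 3 libraries) of the 36 members (y axis, grouped by role) in each of the 4 experiments. Filled points were called, open points were not, and blanks were not tested. All 7 serine and one-carbon enzymes (PHGDH to ALDH1L2) lie left of 0 after shYY2 and after shFOXRED1.

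How the libraries were scaled changed the split in 3 experiments. With library totals in place of TMM factors, the median of all genes moved from -0.012 to -0.12 in the tumors and 6 members were called higher and 14 lower, and over all genes the share of calls that were higher went from 51.7% to 30.4%. That share went from 56.8% to 40.6% for HA-TRIM15, where 13 members were then higher and 2 lower, and from 46.1% to 57.3% for shFOXRED1, where 5 were higher and 14 lower. For shYY2 it went from 49.1% to 50.2%. Single libraries also mattered for HA-TRIM15, where 9 members were called higher without EV replicate 2 or 3 and 4 lower without TRIM15-OE replicate 1 (0 lower without any other library), and for shFOXRED1, where 3 were called higher without FOXRED1-NC replicate 3.

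Across the 4 experiments, 5 members were called in all of them (DDIT3, MTHFD2, ALDH1L2, XPOT and SLC7A1), 18 in 3, 4 in 2, 8 in 1 and 1 in none. The same counts were not made over all genes, so nothing about the members is read from these numbers. No member rose in all 4 experiments and none fell in all 4. The member called in none was CBS, which makes cystathionine from homocysteine and serine. It had 0 to 5 counts in every library and was not tested, and its near-identical copy CBSL had 0 or 1, so its level is uncertain where the counting could not place reads. NUPR1 was tested only in the tumors and BCAT1 only in the YY2 experiment.

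Enzymes of serine synthesis and of the mitochondrial one-carbon pathway were the group of members called lower throughout in both knockdowns. PHGDH, PSAT1 and PSPH carry a glycolytic intermediate to serine, and SHMT2, MTHFD2, MTHFD1L and ALDH1L2 pass the serine carbon through mitochondrial folate. All 7 fell after shYY2, with a median log2 fold change of -1.04, and all 7 fell after shFOXRED1, with a median of -0.61. With HFD 5 of the 7 rose and 0 fell (median 0.26), and with HA-TRIM15 4 rose and 0 fell (median 0.14). Of all genes tested, 38.1% were called lower after shYY2 and 19.7% after shFOXRED1. With HFD 25.6% were called higher, and with HA-TRIM15 12.5%. After shYY2 all 20 genes of the ATF6 and XBP1 list below also fell, and 14 of 18 other folate, glycine and methionine genes. After shFOXRED1 these were 7 of 20 and 8 of 17. The members were chosen with these calls known, so nothing is read from these counts.

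PSAT1 (ENSG00000135069), the aminotransferase of the pathway, fell the furthest of all members after shYY2. It stood at 43.5, 44.4 and 43.9 CPM with shYY2 and at 154, 164 and 167 CPM in shControl, a log2 fold change of -1.88 ± 0.039 (SE, adjusted p = 1.86e-15). MTHFD2, the mitochondrial folate dehydrogenase, stood at 37.1, 38.4 and 40.6 CPM against 121, 120 and 118 CPM (-1.63 ± 0.039, adjusted p = 7.93e-15). PSPH, the last enzyme of serine synthesis, stood at 9.19, 8.64 and 7.74 CPM against 23.8, 23.7 and 25.5 CPM (-1.52 ± 0.079, adjusted p = 6.4e-11). In each case the lowest shControl library lay more than 2-fold above the highest shYY2 library. SHMT2 fell by 1.04, PHGDH by 0.67, MTHFD1L by 0.59 and ALDH1L2 by 0.32 on the log2 scale. These 7 calls held in every alternative that was fitted other than the 1.5-fold threshold, which ALDH1L2 did not reach.

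After shFOXRED1 the order within the group was different. ALDH1L2, which oxidizes formyl-folate in mitochondria, stood at 12.6, 14.6 and 12.9 CPM against 30.8, 27.1 and 34.5 CPM in shControl (-1.20 ± 0.11, adjusted p = 1.58e-07). MTHFD2 stood at 106, 101 and 114 CPM against 164, 169 and 181 CPM (-0.68 ± 0.062, adjusted p = 1.85e-07). The groups did not overlap for either gene. PSPH, PSAT1 and PHGDH fell by 0.62, 0.61 and 0.60, and MTHFD1L by 0.29. SHMT2 fell by 0.23, and its call was lost without FOXRED1-NC replicate 1 (adjusted p = 0.0593) or 2 (0.0633).

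In the HFD tumors, ALDH1L2 and MTHFD2 were among the 5 members that rose most. ALDH1L2 stood at 13.5, 13.5 and 13.6 CPM against 7.16, 6.72 and 7.68 CPM in ND tumors (0.93 ± 0.08, adjusted p = 7.7e-08). MTHFD2 stood at 108, 105 and 109 CPM against 77.5, 77.2 and 77.8 CPM (0.47 ± 0.036, adjusted p = 1.64e-08). All HFD libraries lay above all ND libraries for both genes. MTHFD1L rose by 0.32 and PSAT1 by 0.26, and these 4 calls remained with library totals. SHMT2 rose by 0.10, but this became -0.0079 (adjusted p = 0.865) with library totals and was lost without HFD replicate 1 (adjusted p = 0.0859) or 3 (0.0563). PHGDH (-0.0056) and PSPH (0.054) were not called.

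With HA-TRIM15 the calls in this group were those of ALDH1L2, PSPH, PHGDH and MTHFD2. ALDH1L2 stood at 10.0, 10.3 and 10.8 CPM against 7.65, 7.21 and 7.83 CPM with EV (0.46 ± 0.089, adjusted p = 0.0023), with no overlap between the groups. PSPH rose by 0.24 (adjusted p = 0.00999), PHGDH by 0.21 (0.0463) and MTHFD2 by 0.14 (0.0173). The PSPH call was lost without EV replicate 2 (adjusted p = 0.0579), the PHGDH call without any 1 library but TRIM15-OE replicate 3 (0.0596 to 0.168) and the MTHFD2 call without any 1 library but TRIM15-OE replicate 1 (0.051 to 0.091). With library totals PHGDH and MTHFD2 were not called (0.0745 and 0.0596), and DESeq2 did not call PHGDH (0.116). SHMT2 (-0.10), MTHFD1L (-0.027) and PSAT1 (0.046) were not called.

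**Figure D2:**
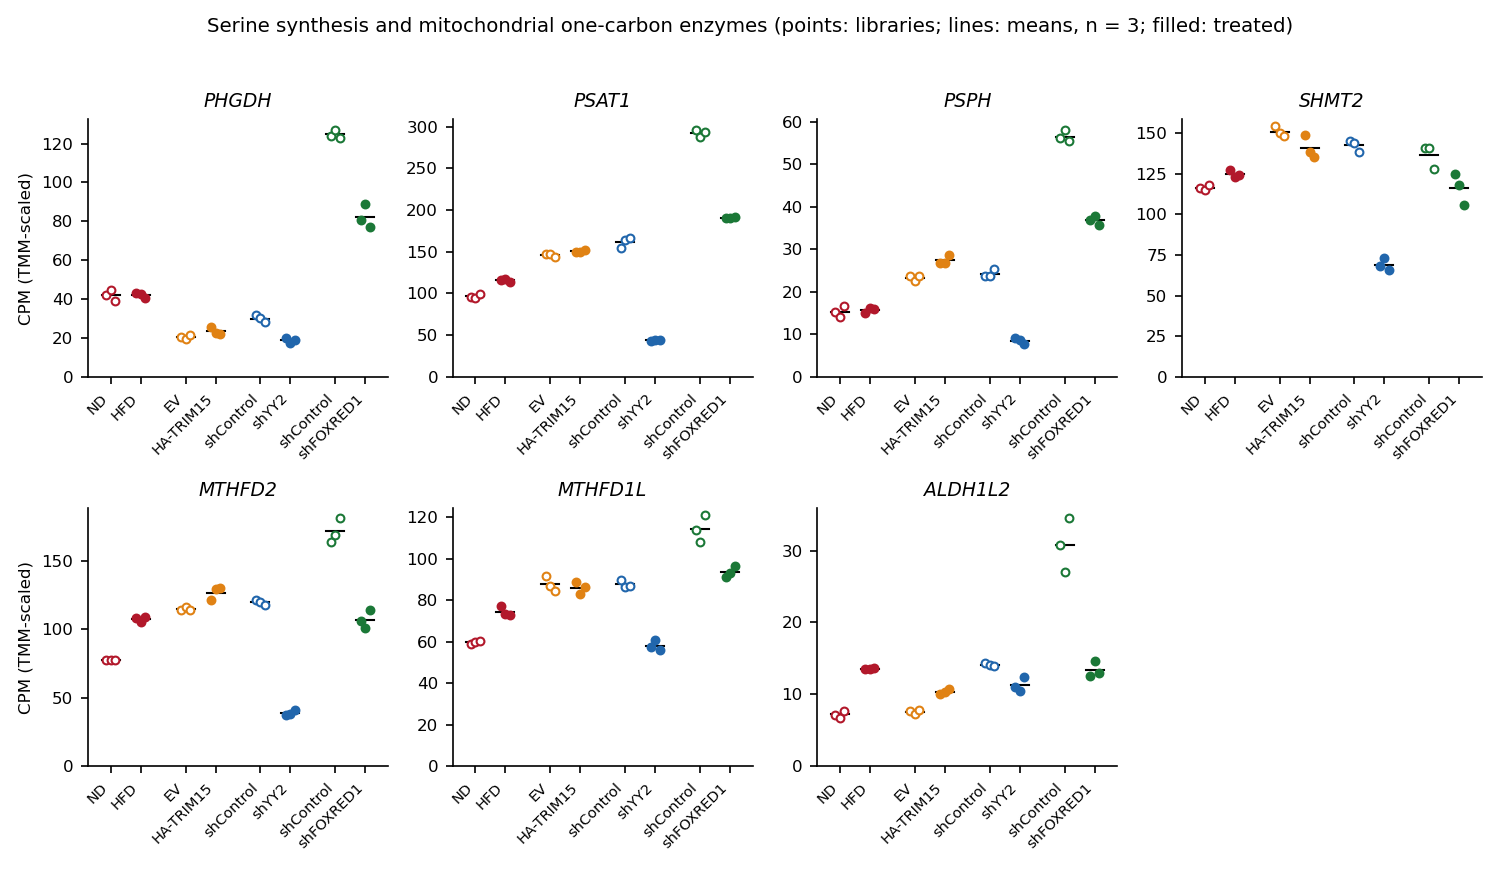
Level (y axis, CPM with TMM scaling within each experiment, axis from 0) of 7 serine synthesis and mitochondrial one-carbon enzymes in each library of the 8 groups (x axis, control left and treated right, points are libraries, lines are means of 3). The 3 shYY2 libraries lie below their 3 shControl libraries in every panel, as do the 3 shFOXRED1 libraries.

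The shControl libraries of the FOXRED1 experiment stood apart from the other controls in level. PHGDH averaged 125 ± 2.06 CPM (SD, n = 3) there, against 30.1 ± 1.72 in the shControl of the YY2 experiment, 20.5 ± 0.837 with EV and 42.1 ± 2.68 in ND tumors. PSAT1, PSPH, MTHFD2, MTHFD1L and ALDH1L2 were also at their highest control level there, while SHMT2 was not. Members outside the serine group stood apart there too, in both directions. Per kilobase of gene model, GDF15 held 334 CPM there against 25.4 to 103 in the other control groups. PPP1R15A held 21.6 there against 55.9 to 126. The tables were scaled separately and these levels were not tested against each other.

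The transcription factors of the list moved in different directions. ATF4 mRNA (ENSG00000128272) stood at 273, 273 and 275 CPM with shYY2 against 239, 242 and 253 CPM in shControl and rose by 0.16 ± 0.03 (adjusted p = 0.000131). With HA-TRIM15 it stood at 315, 303 and 290 CPM against 256, 260 and 253 CPM and rose by 0.24 ± 0.035 (adjusted p = 0.000197). After shFOXRED1 it stood at 387, 392 and 347 CPM against 425, 437 and 422 CPM and fell by 0.19 ± 0.053 (adjusted p = 0.00937). The enzymes of the serine group thus fell beside an ATF4 message that rose after shYY2 and one that fell after shFOXRED1. In the tumors ATF4 was not called (0.061 ± 0.034, adjusted p = 0.149). Without FOXRED1-NC replicate 2 the ATF4 call after shFOXRED1 was lost (adjusted p = 0.0577), and with library totals it was -0.13 (adjusted p = 0.056).

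ATF5, a relative of ATF4 that acts in mitochondrial stress, went opposite ways in the knockdowns. It stood at 3.16, 4.14 and 3.35 CPM with shYY2 against 8.51, 7.15 and 8.77 CPM (-1.20 ± 0.13, adjusted p = 6.82e-07). It stood at 24.0, 25.4 and 21.9 CPM with shFOXRED1 against 11.5, 10.0 and 9.45 CPM (1.20 ± 0.11, adjusted p = 2.28e-07). The groups did not overlap in either experiment, and ATF5 was not called with HFD (0.029) or HA-TRIM15 (0.049).

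DDIT3, which encodes the stress factor CHOP, was called in all 4 experiments. With HA-TRIM15 it stood at 23.0, 22.4 and 21.5 CPM against 14.3, 14.6 and 14.5 CPM (0.62 ± 0.066, adjusted p = 1.27e-05). With shFOXRED1 it stood at 26.2, 25.1 and 23.6 CPM against 21.3, 19.5 and 17.8 CPM (0.35 ± 0.096, adjusted p = 0.00787). It rose in these experiments and fell in the tumors (-0.25, adjusted p = 0.00123) and after shYY2 (-0.18, adjusted p = 0.0353). The last call was lost without YY2-sh replicate 1 or 3 or YY2-NC replicate 1 or 3 (adjusted p 0.0616 to 0.164), by DESeq2 (0.154) and with library totals (0.0541), and the shFOXRED1 call without FOXRED1-NC replicate 3 (adjusted p = 0.05).

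CEBPB, a partner that C/EBP-ATF elements can bind, rose in 3 experiments. It stood at 313, 318 and 320 CPM with HFD against 199, 221 and 215 CPM with ND (0.58 ± 0.04, adjusted p = 4.4e-09). It stood at 224, 202 and 225 CPM with shYY2 against 178, 196 and 186 CPM (0.22 ± 0.043, adjusted p = 0.000234), and at 301, 311 and 270 CPM with shFOXRED1 against 214, 218 and 198 CPM (0.48 ± 0.06, adjusted p = 7.2e-06). With HA-TRIM15 it was not called (0.16, adjusted p = 0.0655). Its relative CEBPG fell after shYY2 (-0.83) and shFOXRED1 (-0.26) and rose with HA-TRIM15 (0.24).

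JDP2, a leucine zipper repressor, stood at 8.16, 9.06 and 9.09 CPM with shYY2 against 6.92, 7.09 and 7.11 CPM (0.32 ± 0.097, adjusted p = 0.00788), a rise that DESeq2 did not call (0.0996). NUPR1, a small stress cofactor, had 6, 2 and 11 counts in HFD tumors against 13, 31 and 18 in ND tumors (-1.42 ± 0.36, adjusted p = 0.00346). Its counts are few, and at most 31 in any library. It passed the filter on low counts through the ND group alone (0.487, 0.649 and 0.838 CPM, against 0.263, 0.109 and 0.289 CPM with HFD). The filter thus favored a lower call, and nothing is read from its p-value. NUPR1 is counted among the 9 members that fell with HFD.

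**Figure D3:**
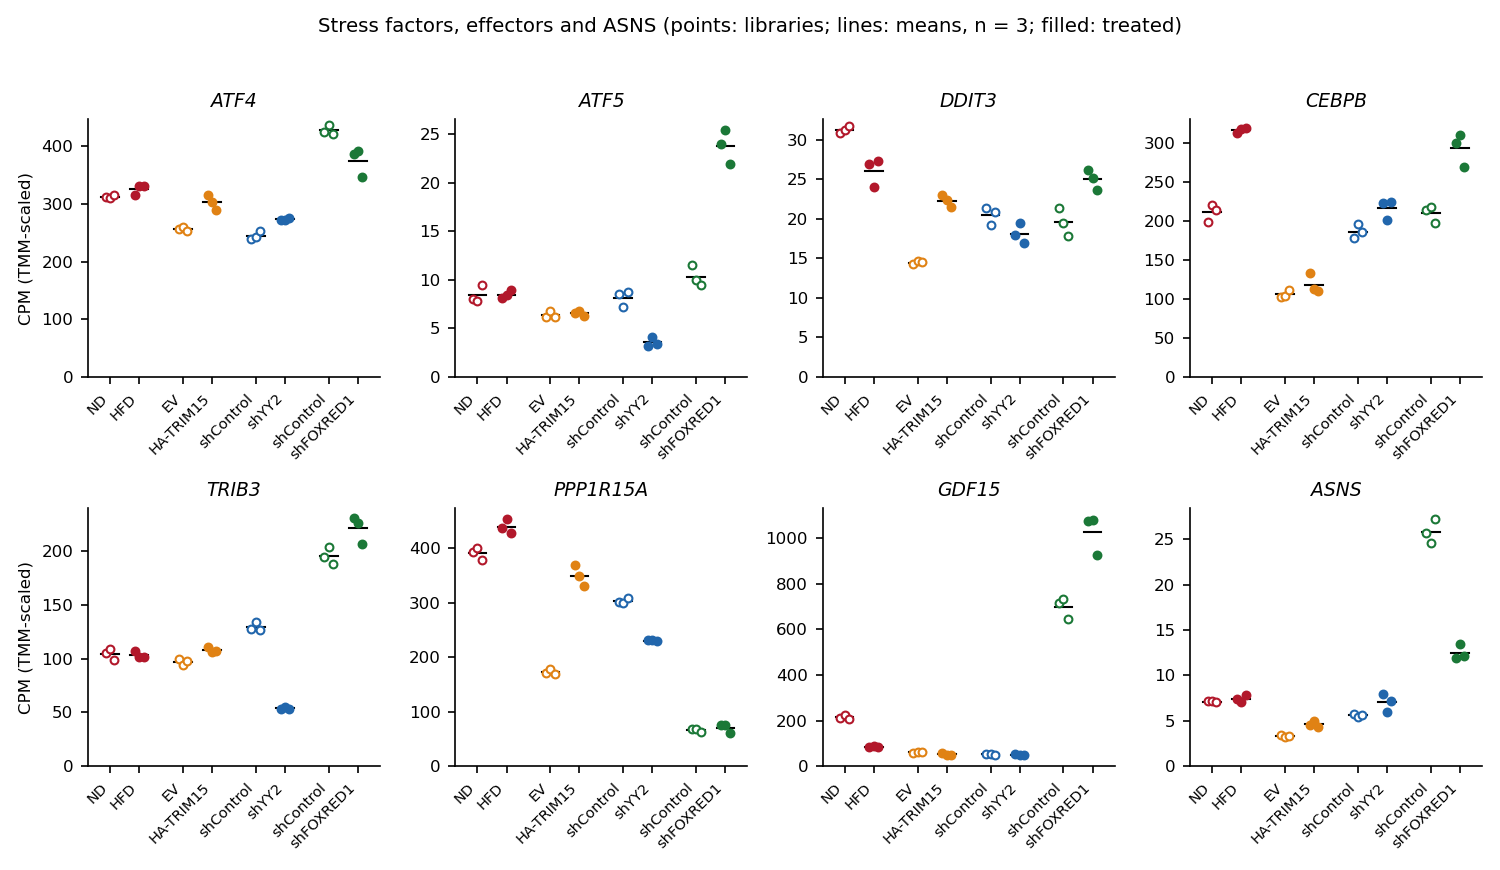
Level (y axis, CPM with TMM scaling within each experiment, axis from 0) of ATF4, 3 other stress factors, 3 effectors and ASNS in each library of the 8 groups (x axis, points are libraries, lines are means of 3). ATF5 lies below its controls after shYY2 and above them after shFOXRED1, and PPP1R15A lies above its controls with HA-TRIM15.

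Among effectors and feedback genes, PPP1R15A carried the largest rise of any member with HA-TRIM15. It encodes GADD34, which brings a phosphatase back to eIF2α. It stood at 369, 349 and 331 CPM against 171, 178 and 170 CPM with EV (1.02 ± 0.04, adjusted p = 1.86e-10). With HFD it rose by 0.17, a call lost with library totals, and after shYY2 it fell by 0.39.

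TRIB3, a pseudokinase that restrains ATF4 signaling, stood at 53.2, 55.0 and 52.7 CPM with shYY2 against 128, 134 and 127 CPM (-1.27 ± 0.036, adjusted p = 4.4e-14). After shFOXRED1 it stood at 231, 226 and 207 CPM against 195, 204 and 188 CPM (0.18 ± 0.057, adjusted p = 0.0191). The shFOXRED1 call was lost without FOXRED1-NC replicate 1 or 3 or FOXRED1-sh replicate 1 or 2 (adjusted p 0.0748 to 0.0978). With HA-TRIM15 TRIB3 rose by 0.15, a call lost without EV replicate 2 (adjusted p = 0.0766) or 3 (0.0518), and in the tumors it was not called (-0.011).

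GDF15, a secreted stress cytokine, showed the widest spread of levels. It stood at 82.1, 87.8 and 83.9 CPM in HFD tumors against 212, 223 and 207 CPM in ND tumors (-1.34 ± 0.04, adjusted p = 5.94e-13). After shFOXRED1 it stood at 1077, 1079 and 924 CPM against 717, 731 and 646 CPM (0.56 ± 0.06, adjusted p = 1.52e-06). With HA-TRIM15 it stood at 58.3, 49.4 and 49.7 CPM against 58.4, 60.7 and 60.0 CPM (-0.18 ± 0.057, adjusted p = 0.0352). The HFD and shFOXRED1 shifts separated all libraries, whereas with HA-TRIM15 the nearest libraries were almost level. That last call was lost on leaving out any library but TRIM15-OE replicate 1 (adjusted p 0.0651 to 0.152).

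SESN2, a leucine-sensing inhibitor of mTORC1, stood at 25.9, 28.3 and 26.2 CPM in HFD tumors against 32.6, 34.1 and 31.8 CPM with ND (-0.30 ± 0.053, adjusted p = 0.000168). It rose by 0.39 with HA-TRIM15 and fell by 0.51 after shYY2. CHAC1, which degrades glutathione, rose with HA-TRIM15 (0.33, adjusted p = 0.0243), a call lost without TRIM15-OE replicate 3 or any 1 of the EV libraries (adjusted p 0.0604 to 0.0982) and by DESeq2 (0.0553). After shFOXRED1 CHAC1 was not called (-0.17, adjusted p = 0.162). The labels name no pairs of libraries. With same-numbered libraries taken as pairs (the replicate block), CHAC1 was called lower there (-0.17, adjusted p = 0.0355) and after shYY2 (-0.18, adjusted p = 0.041). In the main fit it was called in neither. After shYY2 CHAC1 was also called lower without YY2-NC replicate 1 or 3 or YY2-sh replicate 2 (adjusted p 0.0342 to 0.0414).

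Of the eIF2α kinases, EIF2AK3 (PERK), which acts at the endoplasmic reticulum, moved most after shFOXRED1. EIF2AK3 stood at 17.2, 15.8 and 18.8 CPM against 27.1, 27.1 and 29.6 CPM (-0.70 ± 0.096, adjusted p = 2.16e-05), with no overlap. It also fell with HFD (-0.25) and shYY2 (-0.19). EIF2AK4 (GCN2), the kinase that senses uncharged tRNA, fell after shYY2 (-0.21, adjusted p = 1.51e-05). After shFOXRED1 EIF2AK4 was not called (-0.17, adjusted p = 0.0624), but was called lower with the replicate block (-0.17, adjusted p = 0.00373). EIF2AK4 was also called lower there with no filter (0.0419) and without FOXRED1-sh replicate 3 (-0.24, adjusted p = 0.000556).

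Among the other amino acid enzymes, asparagine synthetase (ASNS) did not follow the serine group after shYY2. It stood at 7.91, 6.00 and 7.19 CPM with shYY2 against 5.76, 5.37 and 5.60 CPM (0.33 ± 0.12, adjusted p = 0.0209). After shFOXRED1 it stood at 11.9, 13.5 and 12.1 CPM against 25.7, 24.6 and 27.2 CPM (-1.04 ± 0.1, adjusted p = 3.67e-07). With HA-TRIM15 it stood at 4.53, 4.94 and 4.30 CPM against 3.45, 3.21 and 3.30 CPM (0.47 ± 0.12, adjusted p = 0.0149). Every treated library lay on 1 side of its controls in these 3 experiments. The shYY2 call was lost without YY2-NC replicate 2 or YY2-sh replicate 1 or 3 (adjusted p 0.0552 to 0.106), and the HA-TRIM15 call without TRIM15-EV replicate 2 or 3 or TRIM15-OE replicate 2 (adjusted p 0.0573 to 0.0668). Neither rise was called by DESeq2 (adjusted p = 0.138 and 0.0986).

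CTH, which makes cysteine from cystathionine, fell with HFD and shFOXRED1 and rose with HA-TRIM15. It stood at 11.5, 12.6 and 12.6 CPM in HFD tumors against 19.0, 16.6 and 16.9 CPM (-0.51 ± 0.075, adjusted p = 3.1e-05). After shFOXRED1 it stood at 17.2, 14.2 and 16.8 CPM against 27.2, 29.1 and 26.0 CPM (-0.77 ± 0.1, adjusted p = 1.25e-05). With HA-TRIM15 it stood at 11.6, 8.65 and 10.7 CPM against 6.81, 7.86 and 8.13 CPM (0.45 ± 0.11, adjusted p = 0.0121). The groups did not overlap, and the last call was lost without TRIM15-EV replicate 1 (adjusted p = 0.0617).

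ALDH18A1 and PYCR1, which make proline from glutamate, fell after shYY2 by 0.59 and 0.94. GPT2, a mitochondrial alanine aminotransferase, fell after shYY2 (-0.40) and shFOXRED1 (-0.28). With HFD GPT2 was called lower (-0.13), but its groups overlapped and the call was lost without HFD replicate 1 or 2 or ND replicate 1 or 2 (adjusted p 0.0656 to 0.0953) and by DESeq2 (0.0737). PCK2, the mitochondrial PEP carboxykinase, fell after shYY2 (-0.13) and shFOXRED1 (-0.25), and the first call was lost without YY2-NC replicate 1 or 2 or YY2-sh replicate 1 or 3 (0.0614 to 0.0857) and by DESeq2 (0.14). ALDH18A1 fell by 0.14 after shFOXRED1, a call lost without any 1 of the libraries except FOXRED1-sh replicate 3 (0.0736 to 0.13). XPOT, which exports tRNA from the nucleus, rose with HFD (0.13) and HA-TRIM15 (0.14) and fell after shYY2 (-0.82) and shFOXRED1 (-0.16). The XPOT call with HFD was lost with library totals (adjusted p = 0.736), that with HA-TRIM15 without EV replicate 1 or 3 (0.0551 and 0.0606), and that after shFOXRED1 without any 1 library but FOXRED1-sh replicate 3 (0.063 to 0.143) and with library totals (0.152). BCAT1, a branched-chain aminotransferase, had 14, 15 and 23 counts with shYY2 against 12, 11 and 12 in shControl (0.65 ± 0.28, adjusted p = 0.0472). At these counts its call was lost on leaving out any library but YY2-sh replicate 1 (adjusted p 0.0561 to 0.248), and DESeq2 gave an adjusted p of 0.306.

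Transporters divided by gene. SLC7A5 (LAT1), which imports leucine and other large neutral amino acids, stood at 86.4, 86.6 and 84.2 CPM with shYY2 against 287, 289 and 274 CPM (-1.73 ± 0.033, adjusted p = 7.05e-16). It was not called in the other 3 experiments (-0.06 with HFD, 0.058 with HA-TRIM15 and 0.011 with shFOXRED1). SLC3A2, the heavy chain that carries LAT1 to the membrane and no member of the list, fell after shYY2 as well (166 ± 3.7 against 439 ± 16.4 CPM, SD, n = 3, -1.40) and rose after shFOXRED1 (0.31).

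SLC7A1, the cationic amino acid transporter that imports arginine, was called in all 4 experiments. It stood at 168, 160 and 166 CPM with HFD against 114, 116 and 121 CPM with ND (0.50 ± 0.036, adjusted p = 1.16e-08). It fell after shYY2 (-0.88) and shFOXRED1 (-0.17) and rose with HA-TRIM15 (0.13). The last call was lost without EV replicate 2 or 3 (adjusted p = 0.0892 and 0.0636) and with library totals (0.0525), and the shFOXRED1 call without FOXRED1-NC replicate 2 or FOXRED1-sh replicate 2 (0.0561 each) and with library totals (0.0794). SLC1A4, a carrier of neutral amino acids such as serine, had 52, 30 and 73 counts with HFD against 43, 60 and 27 with ND, or 2.28, 1.64 and 1.92 CPM against 1.61, 1.26 and 1.26 CPM (0.52 ± 0.18, adjusted p = 0.0261). The call was lost without HFD replicate 1 or 3 or ND replicate 2 or 3 (adjusted p 0.0558 to 0.115), with library totals (0.068) and by DESeq2 (0.15). SLC1A4 fell after shYY2 (-0.80, not called by DESeq2 at 0.0763) and shFOXRED1 (-0.58, lost without FOXRED1-NC replicate 1 at 0.0868).

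SLC6A9, the glycine transporter, moved against the serine enzymes in the tumors and after shYY2. It stood at 29.5, 29.5 and 28.1 CPM with HFD against 51.5, 55.8 and 53.4 CPM (-0.89 ± 0.048, adjusted p = 2.96e-10). With shYY2 it stood at 30.7, 30.1 and 28.3 CPM against 20.1, 25.0 and 20.7 CPM (0.44 ± 0.075, adjusted p = 6.91e-05). The groups were apart in both. SLC38A2, a glutamine and alanine carrier, changed by at most 0.23 on the log2 scale in any experiment. After shFOXRED1 it was not called (-0.13, adjusted p = 0.0626), but was called lower with the replicate block (-0.14, adjusted p = 0.000866). SLC38A2 was also called lower there by DESeq2 (0.0389), with no filter (0.0334) and without FOXRED1-sh replicate 3 (-0.20, adjusted p = 9.54e-05). SLC1A5, the main glutamine carrier, lay between -0.078 and 0.057 in all 4. It was called lower after shYY2 (adjusted p = 0.0484), a call lost without YY2-NC replicate 1 or 2 or YY2-sh replicate 1 or 2 (0.0785 to 0.157), by DESeq2 (0.0801) and with library totals (0.113).

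Per kilobase of gene model, member levels in the controls ran over a wide range. ATF4 held 97.3 to 170 CPM per kb over the 4 control groups and SLC38A2 90.3 to 133 CPM per kb. ASNS held 0.745 to 5.8 and SLC1A4 0.178 to 1.33 CPM per kb, and NUPR1, BCAT1 and CBS stayed at or below 0.116 CPM per kb.

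The effects of neighbouring steps were compared in 1 fit over all 24 libraries, each treated group against its own controls. The HFD and HA-TRIM15 effects differed for 17 of 35 members, against a background of 28.4% of all genes tested. The 4 members called in opposite directions, beside 4.4% of the genes tested in both experiments, were CTH, DDIT3, SESN2 and SLC38A2, each of which fell with HFD and rose with HA-TRIM15, although the HFD call of SLC38A2 (-0.11) was lost without HFD replicate 1 (adjusted p = 0.117), ND replicate 1 (0.0501) or ND replicate 3 (0.0794). The HA-TRIM15 call of CTH was lost without TRIM15-EV replicate 1 (adjusted p = 0.0617). The difference was -0.95 ± 0.14 for CTH (adjusted p = 2.89e-06), -0.87 ± 0.096 for DDIT3 (2.3e-08) and -0.69 ± 0.1 for SESN2 (3.78e-06). In the serine group, the effects on PSAT1, SHMT2, MTHFD2, MTHFD1L and ALDH1L2 were higher with HFD than with HA-TRIM15, by 0.21 to 0.48.

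The HA-TRIM15 and shYY2 effects differed for 25 of 35 members, against 57.4% of all genes. Of these, 11 rose with HA-TRIM15 and fell with shYY2, as did 5.8% of the genes tested in both experiments. The difference was 1.73 ± 0.063 for MTHFD2 (adjusted p = 4.94e-20), 1.72 ± 0.1 for PSPH (3.08e-15) and 1.39 ± 0.066 for TRIB3 (2.52e-17). Leaving out single libraries ended the HA-TRIM15 calls of MTHFD2, PSPH and TRIB3, as given above. ATF4 itself rose in both, and its effects differed by 0.043 ± 0.057 (adjusted p = 0.542), so a difference was not detected.

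The shYY2 and shFOXRED1 effects differed for 26 of 35 members, against 55.5% of all genes. In both knockdowns 15 members fell, beside 12.7% of the genes tested in both, and 5 were called in opposite directions (ATF4, ATF5, DDIT3, TRIB3 and ASNS), beside 9.21% of those genes. Leaving out single libraries ended the calls of ATF4 and TRIB3 after shFOXRED1, of ASNS after shYY2 and of DDIT3 in each knockdown, as given above. The members were chosen with these calls known, so nothing is read from these shares. The difference was -2.36 ± 0.16 for ATF5 (adjusted p = 1.14e-13), 1.42 ± 0.14 for ASNS (2.13e-10) and -1.41 ± 0.065 for TRIB3 (1.26e-17). Within the serine group, PSAT1, PSPH, SHMT2, MTHFD2 and MTHFD1L fell further with shYY2, by 0.26 to 1.23, and ALDH1L2 fell further with shFOXRED1, by 0.92. For PHGDH the difference was -0.029 ± 0.093 (adjusted p = 0.813).

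**Figure D4:**
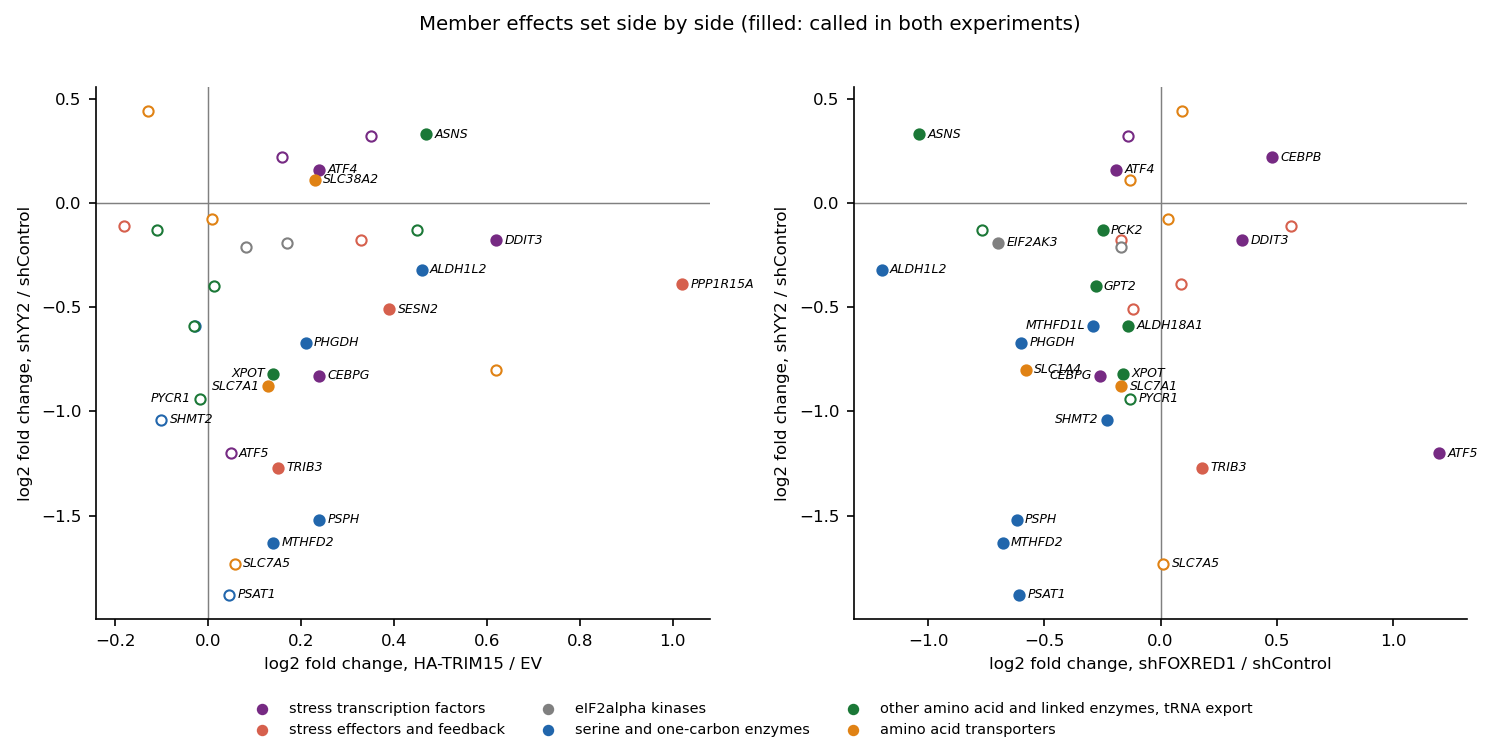
Log2 fold change of members after shYY2 (y axes) against that with HA-TRIM15 (left, x axis) and with shFOXRED1 (right, x axis), colored by role and filled where called in both experiments. Filled points at the lower right of the left panel are the 11 members that rose with HA-TRIM15 and fell with shYY2, and those at the lower left of the right panel are the 15 that fell in both knockdowns.

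Other genes of the pathway were taken from lists drawn up with earlier results of these data known. Of 24 further genes known to respond to ATF4, 21 were tested in each experiment. With HFD 8 rose and 2 fell (38.1% and 9.52%, against 25.6% and 23.9% of all genes tested). With HA-TRIM15 11 rose and 2 fell (52.4% and 9.52%, against 12.5% and 9.53%). With shYY2 3 rose and 13 fell (14.3% and 61.9%, against 36.8% and 38.1%). With shFOXRED1 3 rose and 11 fell (14.3% and 52.4%, against 16.8% and 19.7%). DDIT4, an mTORC1 inhibitor, rose with HFD (297 ± 8.82 against 182 ± 9.4 CPM, 0.71), HA-TRIM15 (0.31) and shYY2 (0.36) and fell after shFOXRED1 (-0.46). The cystine carrier SLC7A11 rose with HFD (0.32), and the autophagy gene MAP1LC3B (0.38) and the peptide ADM2 (0.41) with HA-TRIM15. SQSTM1, an autophagy receptor, fell with HA-TRIM15 (-0.13) and rose after shYY2 (0.37) and shFOXRED1 (0.76), and EIF4EBP1, a translation inhibitor, fell with HA-TRIM15 (-0.14). The list held 12 aminoacyl-tRNA synthetases, of which 11 fell and 1 rose after shYY2 (WARS1 fell by 1.28), 8 fell and 1 rose after shFOXRED1 (GARS1 fell by 0.45), 7 rose and 0 fell with HA-TRIM15, and 2 rose and 2 fell with HFD (GARS1 -0.11, AARS1 -0.10).

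Of 16 genes around the eIF2α kinases, 8 rose and 4 fell with HFD, against 25.6% and 23.9% of all genes tested. With HA-TRIM15 3 rose and 3 fell, against 12.5% and 9.53% of all genes tested. After shYY2 5 of the 16 rose and 9 fell, against 36.8% and 38.1%. After shFOXRED1 0 of the 16 rose and 7 fell, against 16.8% and 19.7%. EIF2B3, a subunit of the exchange factor of eIF2, fell after shYY2 (4.27 ± 0.201 against 17.9 ± 0.471 CPM, -2.06) and shFOXRED1 (-0.56). EIF2S1, which is eIF2α itself, rose with HFD (0.46) and fell after shYY2 (-1.08). PPP1R15B, the constitutive partner of the eIF2α phosphatase, rose with HFD (0.39), HA-TRIM15 (0.33) and shYY2 (0.42). GCN1, which activates GCN2, fell after shFOXRED1 (-0.40). OMA1, the mitochondrial stress protease, fell with HFD (-0.28) and rose after shYY2 (0.42), and DELE1, which relays its signal, fell with HA-TRIM15 (-0.18). The exchange factor subunit EIF2B5 fell with HFD (-0.20) and HA-TRIM15 (-0.15), and EIF2S3, the gamma subunit of eIF2, rose with HA-TRIM15 (0.14).

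Of 21 other genes of folate, glycine and methionine metabolism, 14 of 18 tested fell and 2 rose after shYY2. These were 77.8% and 11.1%, against 38.1% lower and 36.8% higher of all genes tested. After shFOXRED1 8 of 17 fell and 1 rose (47.1% and 5.88%, against 19.7% and 16.8%). With HFD 8 of 19 rose and 2 fell (42.1% and 10.5%, against 25.6% and 23.9%). With HA-TRIM15 3 of 18 rose and 3 fell (16.7% each, against 12.5% and 9.53%). Thymidylate synthase TYMS fell after shYY2 (-1.60) and shFOXRED1 (-0.87) and rose with HFD (0.41), and GGH, a folate hydrolase, fell after shFOXRED1 (-0.96) and rose with HFD (0.51) and HA-TRIM15 (0.16). The folate carrier SLC19A1 fell with HA-TRIM15 (-0.22) and shYY2 (-1.46). MTRR, which reactivates methionine synthase, rose (0.18) and AHCY, which cleaves adenosylhomocysteine, fell (-0.16) with HA-TRIM15, and MAT2B, a subunit of methionine adenosyltransferase, rose after shYY2 (0.17).

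Paralogs and compartment counterparts of the members (27 genes) did not move 1 way. After shYY2 9 rose and 12 fell of 22 tested (40.9% and 54.5%, against 36.8% and 38.1% of all genes tested). After shFOXRED1 7 rose and 8 fell of 22 (31.8% and 36.4%, against 16.8% and 19.7%). With HFD 6 rose and 8 fell of 23 (26.1% and 34.8%, against 25.6% and 23.9%). With HA-TRIM15 4 rose and 3 fell of 22 (18.2% and 13.6%, against 12.5% and 9.53%). SHMT1, the cytosolic counterpart of SHMT2, fell with HFD (-0.15), HA-TRIM15 (-0.21), shYY2 (-0.58) and shFOXRED1 (-0.29). ATF3, another stress factor, rose with HA-TRIM15 (139 ± 4.36 against 39.3 ± 0.495 CPM, 1.82) and fell after shFOXRED1 (-0.57). SESN3 rose after shYY2 (16.7 ± 0.855 against 1.39 ± 0.188 CPM, 3.57) while SESN2 fell, and CHAC2 fell (1.44 ± 0.207 against 12.2 ± 0.976 CPM, -3.06). PYCR3, a cytosolic proline enzyme, fell after shYY2 (0.352 ± 0.0756 against 4.48 ± 2.94 CPM, -3.65) and rose with HA-TRIM15 (4.92 ± 2.6 against 1.99 ± 0.264 CPM, 1.34), with a wide spread in its higher group each time. In the YY2 experiment PYCR3 passed the filter on low counts through the shControl group alone. The filter thus favored a lower call, and nothing is read from that fall. PYCR3 is counted among the 12 of this list that fell after shYY2. GPT, the cytosolic counterpart of GPT2, rose after shYY2 (1.68) and shFOXRED1 (1.25), and CEBPA rose after shFOXRED1 (0.93). SLC7A2, a cationic amino acid carrier like SLC7A1, rose with HFD (0.64), as did SESN1 (0.49), while the glutamate carrier SLC1A1 (-0.71) and TRIB1 (-0.28) fell. BCAT2, the mitochondrial counterpart of BCAT1, fell with HA-TRIM15 (-0.28) and shFOXRED1 (-0.57).

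The ATF6 and XBP1 arms of the unfolded protein response (20 genes, all tested) make endoplasmic reticulum chaperones. All 20 fell after shYY2, against 38.1% of all genes tested. HSPA5 (BiP) stood at 352 ± 5.61 against 1596 ± 40.0 CPM (-2.18) and SDF2L1 at -1.70. After shFOXRED1 5 rose and 7 fell (25.0% and 35.0%, against 16.8% and 19.7%). SEL1L stood at -1.05, HSP90B1 at -0.38, DNAJB9 at 0.55 and CALR at 0.28. With HFD 14 rose and 1 fell (70.0% and 5.0%, against 25.6% and 23.9%). DNAJB11 stood at 0.72, PDIA4 at 0.57 and SYVN1 at -0.15. With HA-TRIM15 11 rose and 0 fell (55.0% and 0.0%, against 12.5% and 9.53%), with DNAJB9 at 0.75 and HERPUD1 at 0.65.

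**Figure D5:**
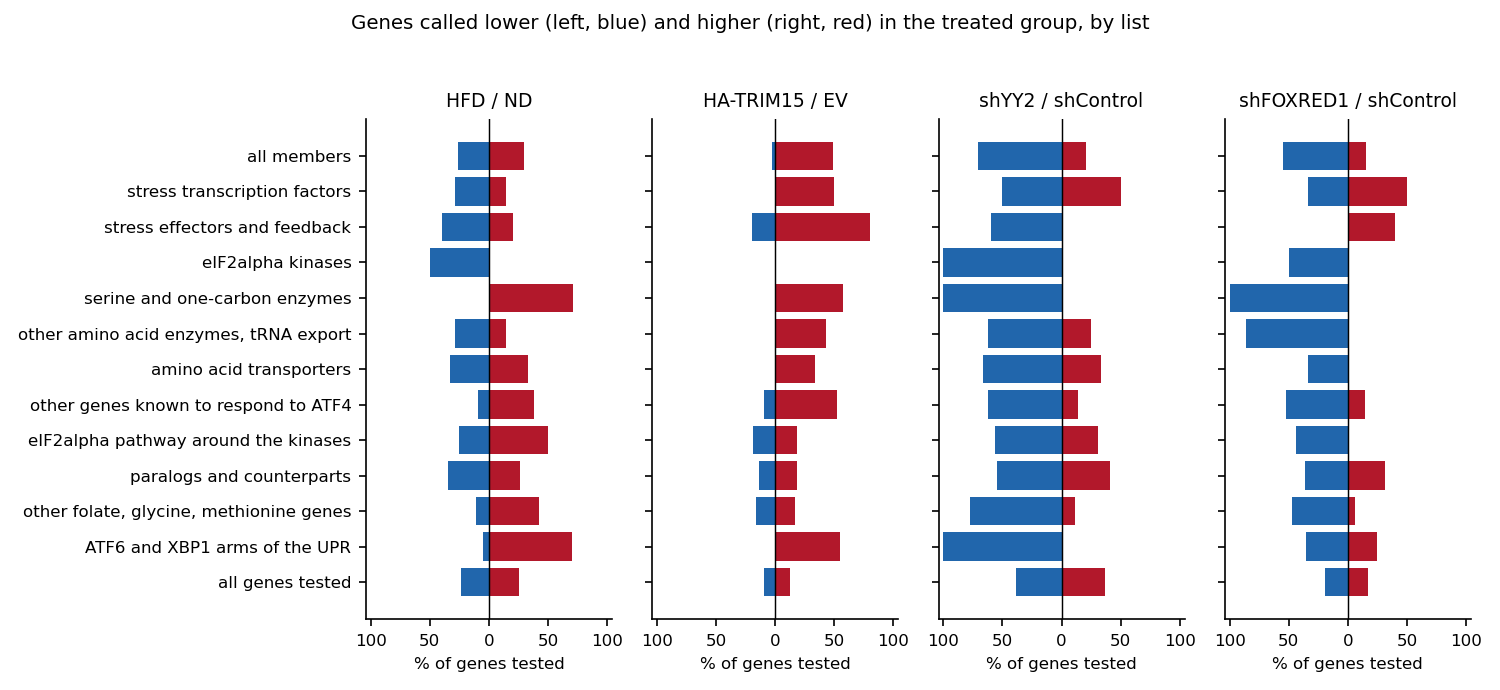
Share of the genes tested in each list (x axis, percent) that were called lower (left) and higher (right) in each of the 4 experiments, with all genes tested at the bottom. After shFOXRED1 the serine and one-carbon enzymes all fell while the ATF6 and XBP1 list split, whereas after shYY2 both fell throughout.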

How the data were processed

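RNA-seq gene counts of 24 OE33 libraries were used as the authors deposited them, as raw counts per Ensembl gene in 4 tables. The aligner, counter and annotation are not given in the sources used here, the submitters' processing notes name hg38 and mm10 without roles, and the sources differ on whether the library kit kept strand, so antisense and overlapping genes cannot be told apart with certainty. The 37 mitochondrial genes had 0 counts in every library.

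Each experiment was fitted with its 6 libraries in edgeR 4.0.16 (R 4.3.3; filterByExpr with a minimum count of 10, TMM, quasi-likelihood F test), and p-values were adjusted by Benjamini-Hochberg across every gene in the fit. Differences between effects came from 1 fit of 24 libraries with 8 group means. The code was tested on simulated data. CPM are TMM-scaled within an experiment, log2 fold changes are fitted, and SE is the log2 fold change over the root of F. Per-kilobase levels used GENCODE 29 lengths.

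The members and gene lists were chosen with earlier results of these data known, and no list was tested. For each experiment, up to 5 called members that moved furthest up and 5 that moved furthest down are given by library, as is ATF4. From each list, up to 2 called genes per direction were named, provided that their average reached 1 CPM. 1 gene that this rule names is not reported here. Printed promoters are those of members with the core that were called in at least 3 experiments. Alternatives were DESeq2 1.42.0 (size factors, Wald test), library totals without TMM, no filter, at least 10 counts in every library, a 1.5-fold threshold, a replicate block and leaving out each library. Over the 9725 genes that averaged 10 CPM or more, deviations of same-numbered libraries correlated at 0.211, 0.125 and 0.41 in the FOXRED1 experiment. By the same measure the values were -0.00106, 0.136 and 0.206 in the YY2 experiment. They were 0.003, -0.0721 and 0.123 in the tumors, and -0.0725, 0.109 and -0.079 in the TRIM15 experiment. Over all 15730 genes tested the FOXRED1 values were 0.0318, 0.0125 and 0.0775. The labels name no pairs, so the replicate block was an alternative in each experiment and not the main fit. No pair of replicates agreed within sampling noise. With 3 against 3 libraries an exact permutation test cannot go below p = 0.1, so none was run.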

Additional observations from a re-analysis of the deposited data

Results flagged for a closer look

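The effects of neighbouring steps differed, by the edgeR quasi-likelihood test of the difference itself over 24 libraries, for 17 of 35 members between HFD and HA-TRIM15, for 25 of 35 between HA-TRIM15 and shYY2 and for 26 of 35 between shYY2 and shFOXRED1. Among all genes tested, 28.4%, 57.4% and 55.5% differed in these comparisons. Between HFD and HA-TRIM15 the differences singled out, with opposite calls in the 2 experiments, were -0.95 for CTH, -0.87 for DDIT3 and -0.69 for SESN2 on the log2 scale. Between HA-TRIM15 and shYY2 they were 1.73 for MTHFD2, 1.72 for PSPH and 1.39 for TRIB3. Between shYY2 and shFOXRED1 they were -2.36 for ATF5, 1.42 for ASNS and -1.41 for TRIB3. Leaving out single libraries ended the HA-TRIM15 calls of CTH, MTHFD2, PSPH and TRIB3, the shYY2 call of ASNS and the shFOXRED1 call of TRIB3.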

How the results depend on the processing

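The calls of PSAT1, PSPH, MTHFD2, SHMT2, PHGDH, MTHFD1L and ALDH1L2 after shYY2 held under every change of scaling, filter, tool, block and left-out library. With library totals the HFD counts became 6 higher and 14 lower, SHMT2 went from 0.10 to -0.0079 and ALDH18A1 from 0.004 to -0.11, and the HA-TRIM15 count of lower members became 2, as it did with no filter. A 1.5-fold threshold left 1 higher and 3 lower with HFD, 2 and 0 with HA-TRIM15, 1 and 15 with shYY2, and 1 and 8 with shFOXRED1. DESeq2's Wald test left 4 members higher after shYY2. Leaving out single libraries gave 8 to 12 higher and 7 to 9 lower with HFD, 9 to 17 and 0 to 4 with HA-TRIM15 (9 higher without TRIM15-EV replicate 2 or 3), 5 to 6 and 22 to 25 with shYY2, and 3 to 7 and 13 to 20 with shFOXRED1 (3 higher without FOXRED1-NC replicate 3). Differences between effects then numbered 14 to 19, 25 and 25 to 26. The replicate block gave 11 higher and 9 lower with HFD, 16 and 1 with HA-TRIM15, 6 and 26 with shYY2, and 5 and 21 with shFOXRED1 (20, 25 and 26 differences between effects). It changed no member's call within an experiment beyond those of CHAC1, EIF2AK4 and SLC38A2 after shFOXRED1, PYCR1 with HFD, PHGDH and CEBPB with HA-TRIM15, and BCAT1, CHAC1 and GDF15 after shYY2. The cause of these changes was not tested. Precision was limited by counts for SLC1A4, BCAT1 and NUPR1.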
